A study of Homo sapiens with 14 samples.

Results

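The forkhead guides described here are the 276 guides, out of 11364 in a pooled knockout library of transcription factors, whose target name starts with FOX, leaving out the FOXO, FOXA and FOXH names. They target 41 genes. Of these, 38 genes have 7 guides each, FOXD4L5 has 5, FOXD1 has 4 and FOXD4L3 has 1. All 41 names matched a gene of GRCh38.p14, from which the coordinates below are taken. The guides were chosen by target name alone, not by any measured value.

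The guides were carried by H9, an established human pluripotent stem cell line with a doxycycline-inducible Cas9 nuclease. The libraries count guides in genomic DNA of 5 groups. These are TNNT2- and TNNT2+ cells from 3D cardiomyocyte cultures at day 25 (3 replicates each), TNNT2- and TNNT2+ cells from 2D cultures at day 25 (3 replicates each), and undifferentiated cells at day 0 (2 replicates). TNNT2 is cardiac troponin T, a thin filament protein of heart muscle, so TNNT2+ cells stand for cardiomyocytes and TNNT2- cells for the rest. All groups share 1 line, the same library and, in the labels, a wild-type genotype. Nothing in the labels says whether the day 0 libraries came from separate cultures, so p-values against day 0 measure the spread between these libraries, which may be technical. Editing at the target sites was not measured, so a guide's count stands for cells that carry the guide, whether or not the gene was cut. No marker check of the sort is possible from guide counts.

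Forkhead factors bind DNA through a shared winged-helix domain, and many of them set the identity of an embryonic tissue. FOXC1 and FOXC2 act in mesoderm, vessels and the outflow tract of the heart, and FOXF1 acts in splanchnic mesoderm and lung vessels. FOXP1 acts in the myocardium and valve cushions of the mouse heart, FOXK1 in mouse muscle progenitors, and FOXM1 drives entry into mitosis. FOXI3 acts in the pharyngeal arches and ectodermal placodes.

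A guide's level is given in CPM, its reads scaled to a fixed library total, and a gene's CPM is the sum over its guides. Library totals were 22355936 to 31671019 reads. The forkhead guides took 2.28% to 2.62% of the reads of a library, beside their 2.43% share of all guides. Their median was 70.6, 63.7 and 41.9 CPM in the 3D TNNT2- libraries of replicates 1, 2 and 3, and 66.0, 75.0 and 36.0 CPM in the 3D TNNT2+ libraries. It was 76.7, 78.0 and 74.8 CPM in the 2D TNNT2- libraries and 71.3, 77.1 and 77.6 CPM in the 2D TNNT2+ libraries. At day 0 it was 83.0 and 61.4 CPM. The medians thus lay close together in 2D and further apart in 3D and at day 0.

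4 libraries stand apart by the number of guides almost lost from them. Under 1 CPM were 16.3% of forkhead guides in 3D TNNT2- replicate 2, 32.2% in 3D TNNT2- replicate 3, 42.0% in 3D TNNT2+ replicate 3 and 35.1% in day 0 replicate 2. The shares over all guides were 14.9%, 32.8%, 45.1% and 37.6% in the same order. In each of the other 10 libraries, 0 to 9 of the 276 forkhead guides were under 1 CPM. The correlation of log2(CPM + 1) over the 276 guides, which share a library design and a depth, was 0.459 to 0.598 between replicates of a 2D fraction, 0.160 to 0.407 between replicates of a 3D fraction, and 0.261 between the day 0 libraries. For the extreme genes of a comparison that includes any of these 4 libraries, values without one or more of them are given beside the result.

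Tests across the whole library used log2(deposited value + 10), a scale that understates changes of rare guides. A gene's level on this scale is the mean over its guides in a library, and limma compared groups over libraries for all 1621 genes with at least 3 guides that passed a filter on low values. That covers 40 of the 41 forkhead genes. FOXD4L3, with 1 guide, has only a guide test. All 276 guides passed the filter. A call is a Benjamini-Hochberg adjusted p under 0.05 over all genes or all guides. The deposited 2D and 3D tables were scaled separately, so levels on this scale are compared only within one table.

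The sort compares the share of a guide between the non-cardiomyocyte and the cardiomyocyte fraction, as TNNT2- over TNNT2+ cells. How a difference in share arose was not tested. In 2D, limma called no forkhead gene or guide, nor did edgeR or DESeq2 on recovered reads. limma called no gene (0.0% of 1621) or guide (0.0% of 11346) of the whole library. At an unadjusted p under 0.05, 1 forkhead gene was higher in TNNT2- cells (2.59% of all genes were) and 1 was lower (1.23% of all genes were). The lower one was FOXC2. Among guides, 8 forkhead guides were higher (1.67% of all guides) and 3 were lower (1.67%). The 40 genes split into 21 higher and 19 lower, beside 56.9% higher over all genes. Their median log2 ratio was 0.02, and the median over all genes was 0.05. The SD over forkhead genes was 0.30, and the SD over all genes was 0.28. The median half-width of a forkhead gene's 95% interval was 0.52. This interval is not adjusted for the number of genes, whereas a call had to pass the adjustment over all 1621 genes.

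FOXC2 (chromosome 16, 86566829 to 86569728) had the lowest 2D sort ratio of the 40 genes. Its 7 guides summed to 590, 706 and 558 CPM in TNNT2- libraries, against 813, 705 and 663 CPM in TNNT2+ libraries. The fractions overlapped, since TNNT2- replicate 2 lay within the TNNT2+ values. The log2 ratio was -0.57 ± 0.26 (SE, n = 3 libraries per fraction, limma adjusted p = 0.963), with 4 of 7 guides lower, and it was -0.27 without TNNT2- replicate 3. FOXC2_1 was the guide with the smallest p, at 47.5, 88.0 and 117 CPM in TNNT2- libraries and 258, 170 and 99.9 CPM in TNNT2+ libraries (log2 ratio -1.07 ± 0.44, limma adjusted p = 0.986). FOXC2_4 was at 20.0, 42.7 and 0 CPM in TNNT2- libraries and 69.9, 27.6 and 66.6 CPM in TNNT2+ libraries, and 0 reads in that library allow up to 0.134 CPM.

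Among the other mesoderm and vessel regulators, FOXC1 had a log2 ratio of 0.37, FOXF1 of -0.14, FOXF2, a close relative of FOXF1, of -0.35, and FOXL1, a factor of gut mesenchyme, of 0.36. The 7 genes of this group, which also holds FOXQ1 and FOXS1, split into 3 higher and 4 lower, with a median of -0.14. FOXL1 was the forkhead gene with all 7 guides higher in TNNT2- cells, which held for 1 of the 38 forkhead genes with 7 guides and for 0.45% of all such genes. FOXL1 (chromosome 16, 86578549 to 86583478) lies beside FOXC2 and FOXF1 on the same chromosome arm. Its log2 level was 10.97, 10.61 and 11.13 in TNNT2- libraries and 10.61, 10.48 and 10.52 in TNNT2+ libraries. The lowest TNNT2- and the highest TNNT2+ library were level, and the ratio had an SE of 0.20 (limma adjusted p = 0.963).

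The FOXP genes split into 1 higher and 3 lower. FOXP1 (chromosome 3, 70954708 to 71583978) was at 612, 586 and 878 CPM in TNNT2- libraries and 713, 777 and 792 CPM in TNNT2+ libraries. Its log2 ratio was -0.09, with a 95% interval of -0.53 to 0.35, and the fractions overlapped. FOXP4, a lung and gut epithelium factor, had the second highest ratio of the 40 genes, 0.49 ± 0.39 (SE), which was 0.10 without TNNT2+ replicate 1. Its guide FOXP4_4 had the smallest p of the forkhead guides higher in TNNT2- cells. FOXP4_4 was at 108, 400 and 112 CPM in TNNT2- libraries and 22.4, 61.7 and 71.6 CPM in TNNT2+ libraries, without overlap (log2 ratio 1.83 ± 0.55, limma adjusted p = 0.986). The other 6 FOXP4 guides split evenly in direction.

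FOXM1 (chromosome 12, 2857680 to 2877174), the mitotic factor, was at 663, 632 and 386 CPM in TNNT2- libraries and 333, 649 and 444 CPM in TNNT2+ libraries. Its log2 ratio was 0.45 ± 0.39 (SE), 5 of 7 guides were higher, and the fractions overlapped. FOXK1 (chromosome 7, 4682295 to 4771442) had a ratio of 0.10, with a 95% interval of -0.53 to 0.72. FOXI3 (chromosome 2, 88446787 to 88452693) had a ratio of -0.32, with an interval of -0.80 to 0.17. FOXD1, a factor of kidney stroma, had the second lowest ratio of the 40 genes, -0.50 ± 0.41 (SE) over 4 guides that split evenly in direction. Its guides summed to 257, 259 and 212 CPM in TNNT2- libraries and 385, 252 and 202 CPM in TNNT2+ libraries, with overlap.

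Guides to the same forkhead gene often pointed in opposite directions. FOXD3, a pluripotency and neural crest factor, had guides among the leaders on both sides in 2D. FOXD3_6 was at 85.1, 147 and 76.7 CPM in TNNT2- libraries and 28.6, 31.1 and 45.0 CPM in TNNT2+ libraries. FOXD3_4 was at 71.8, 20.6 and 63.5 CPM in TNNT2- libraries and 77.8, 86.7 and 196 CPM in TNNT2+ libraries. Neither overlapped between fractions, and their log2 ratios were 1.48 and -1.29. FOXL1_4 completed the 3 leading guides on the higher side with a ratio of 1.22, and FOXD4L6_6 the 3 on the lower side with -0.66. Over all forkhead guides, 12 did not overlap and were higher in TNNT2- libraries (4.82% of all guides) and 6 did not overlap and were lower (4.03%), which as shares of the 276 are 4.35% and 2.17%.

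In 3D, sort ratios of forkhead guides spread more widely, with an SD over guides of 2.03, against 0.72 in 2D. No forkhead gene was called (0.0% of all genes), and no forkhead guide was called (0.0% of all guides). At an unadjusted p under 0.05, no forkhead gene was higher (0.802% of all genes) or lower (2.1%), 1 guide was higher (0.406% of all guides) and no guide was lower (0.883%). The 40 genes split into 14 higher and 26 lower, beside 45.8% higher over all genes. Their median log2 ratio was -0.22, where all genes had a median of -0.08. That split depends on the scaling. It was 19 higher and 21 lower with CPM scaling and 21 higher and 19 lower with TMM (trimmed mean) scaling, which moved the median of all genes to 0.07 and 0.13. The median half-width of a gene's 95% interval was 1.54, about the size of the extreme ratios themselves.

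FOXC1 (chromosome 6, 1609915 to 1613897) had the lowest 3D ratio. Its guides summed to 424, 331 and 65.0 CPM in TNNT2- libraries, against 421, 614 and 331 CPM in TNNT2+ libraries. Of its 7 guides, 6 were under 1 CPM in TNNT2- replicate 3, where 32.2% of all forkhead guides were. The log2 ratio was -1.72 ± 1.23 (SE, n = 3 libraries per fraction, limma adjusted p = 0.990). It was -0.56 without TNNT2- replicate 3 and -0.32 without the 3 3D libraries that had lost many guides, a setting that leaves 1 TNNT2- against 2 TNNT2+ libraries here and below. In 2D the ratio of FOXC1 was on the other side of 0, with guide sums of 638, 543 and 529 CPM in TNNT2- libraries and 631, 428 and 479 CPM in TNNT2+ libraries.

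FOXC2 was second lowest in 3D, and lowest in 2D. It summed to 450, 496 and 552 CPM in TNNT2- libraries, against 550, 808 and 873 CPM in TNNT2+ libraries, so the highest TNNT2- library and the lowest TNNT2+ library were almost level. On the log2 scale its levels were 9.15, 7.49 and 8.11 in TNNT2- libraries and 9.77, 10.16 and 9.26 in TNNT2+ libraries, without overlap. The share of all genes without overlap was not counted. The log2 ratio was -1.49 ± 0.80 (SE, limma adjusted p = 0.990), between -1.93 and -1.11 with any 1 library left out, and -0.82 without the 3 libraries that had lost many guides. Guide by guide the gene was split. FOXC2_3 was the 1 forkhead guide past an unadjusted p of 0.05, and it was higher in TNNT2- libraries, at 138, 252 and 373 CPM, against 110, 125 and 0.0408 CPM in TNNT2+ libraries. FOXC2_1 was at 55.2, 13.5 and 72.2 CPM in TNNT2- libraries and 129, 187 and 176 CPM in TNNT2+ libraries. Over both systems it was lower in the TNNT2- library of 5 of 6 same-numbered pairs. FOXC2_1 was named for its values in these same libraries, so the count of pairs adds no separate support. The share of all guides with such a count was not taken.

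FOXP1 had a 3D ratio of -1.40 ± 0.89 (SE), and 1 library carried it. Its guides summed to 812, 778 and 238 CPM in TNNT2- libraries, against 984, 795 and 713 CPM in TNNT2+ libraries. In TNNT2- replicate 3, 5 of its 7 guides were under 1 CPM. Without that library the ratio was -0.02. FOXL1 had a ratio of -1.18, which became 0.19 without the 3 libraries that had lost many guides. FOXI3 had a ratio of -0.90, which became 0.23 without them.

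On the higher side in 3D stood FOXN1, the thymic epithelium factor, with 1.47 ± 1.01 (SE), FOXQ1 with 0.98 and FOXP3, the factor of regulatory T cells, with 0.91. FOXN1 summed to 474, 593 and 799 CPM in TNNT2- libraries, against 332, 519 and 92.8 CPM in TNNT2+ libraries. The last of these had 5 of its 7 guides under 1 CPM, and the ratio was 0.32 without it. FOXQ1 was 0.10 without the 3 libraries that had lost many guides. FOXP3 was 0.96 without them, but -0.01 with edgeR and -0.02 with DESeq2 on recovered reads. As reported, 4 of its 7 guides were higher. FOXF1 (chromosome 16, 86510527 to 86515422) had a 3D ratio of 0.44 with an interval of -1.05 to 1.94, FOXK1 of -0.08 with an interval of -2.75 to 2.58, and FOXM1 of -0.22 with an interval of -2.52 to 2.08. Without the 3 libraries that had lost many guides these were -0.07, -0.46 and 0.81.

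FOXD4L1 was the forkhead gene with all 7 guides lower in 3D TNNT2- cells, which 1.43% of all genes with 7 guides were. Its ratio was -1.23 ± 0.66 (SE, limma adjusted p = 0.990), and -0.20 without the 3 libraries that had lost many guides. FOXD4L1_4, among the 3 leading guides on the lower side, was at 46.4, 58.3 and 0.189 CPM in TNNT2- libraries and 147, 141 and 146 CPM in TNNT2+ libraries. FOXI2_4 was another of these guides, with a ratio of -2.64, and FOXD4L4_4 and FOXP3_5 joined FOXC2_3 on the higher side with 2.99 and 5.29. None of these guides was called. In 3D, 24 forkhead guides did not overlap and were higher in TNNT2- libraries (4.25% of all guides, 8.7% of forkhead guides), and 9 did not overlap and were lower (3.85% and 3.26%). In 15 of those 24, the lowest TNNT2+ value was under 1 CPM.

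The 2D and 3D ratios were taken from separate libraries. They had the same sign in 21 of 40 forkhead genes, or 52.5%, and in 49.0% of all genes. Both ratios were lower for 13 forkhead genes and higher for 8. The difference between systems, 3D ratio minus 2D ratio, was tested as an interaction on reads scaled together. No forkhead gene or guide was called in it (0.0% of all genes and of all guides), and the smallest adjusted p was 0.997 for genes and 0.948 for guides. At an unadjusted p under 0.05, no forkhead gene passed (0.0% of all genes higher, 1.23% lower), and 3 guides were higher (0.696% of all guides) and 4 lower (1.41%).

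FOXC1 had the lowest difference between systems, -2.04 ± 1.44 (SE, limma adjusted p = 0.997), and all 7 of its guides had a lower ratio in 3D than in 2D, as 1.35% of all genes with 7 guides did. It was -0.64 without the 3 3D libraries that had lost many guides. FOXL1 followed with -1.42, which was -0.12 without them, and FOXP1 with -1.22, which was 0.16 without them. FOXN1, FOXP3 and FOXQ1 had the highest differences, 1.71, 1.29 and 1.22, which were 0.50, 1.40 and 0.34 without them. FOXN1 was at 0.29 without 3D TNNT2+ replicate 3 alone. FOXC2 differed by -0.88, with a 95% interval of -2.78 to 1.03, and by -0.20 without the 3 libraries. Over the other comparisons, no forkhead gene with 7 guides had them all on 1 side. The shares of all such genes were 0.9% lower in the 2D sort, 0.649% higher in the 3D sort, 0.837% higher in the difference between systems, 1.16% higher and 0.579% lower at day 25 in 2D, and 3.3% higher and 0.194% lower at day 25 in 3D. Among the leading guides were FOXC1_5 and FOXD4L1_4 on the lower side, with -6.54 and -4.91, and FOXC2_3, FOXP3_5 and FOXN1_2 on the higher side, with 4.34, 5.42 and 4.01.

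Day 25 was compared with day 0 in each system, using the mean of the fractions of a replicate (n = 3) against the day 0 libraries (n = 2), so both comparisons share the same day 0 cells. The deposited values of the fractions were averaged before the log was taken. A guide nearly lost from 1 fraction is therefore lifted by the other at day 25, while each day 0 library stands alone, and a day 25 value can lie above the mean of the fractions' log2 levels. Values with the fractions averaged as log2 levels, an alternative chosen after seeing the data, are given beside the splits and the 3D values of the genes named. In 2D, no forkhead gene or guide was called (0.0% of all genes and of all guides). At an unadjusted p under 0.05, 2 forkhead genes were higher at day 25 (2.96% of all genes) and none was lower (0.37%), and 7 guides were higher (2.47% of all guides) and 12 lower (3.97%). The forkhead gene values split into 35 higher and 5 lower, beside 86.8% higher over all genes, with a median of 0.65 beside 0.82. With the fractions averaged as log2 levels the split was 34 higher and 6 lower, with medians of 0.53 and 0.70. Guide values split into 137 higher and 139 lower on this scale and 172 higher and 104 lower with CPM scaling, which raised the median of all genes to 1.15.

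The values of single genes moved with day 0 replicate 2. Without it, the 40 genes split into 25 higher and 15 lower, with a median of 0.09. FOXI3 moved furthest. It summed to 492, 466 and 495 CPM in 2D TNNT2- libraries, 595, 581 and 550 CPM in 2D TNNT2+ libraries, and 784 and 213 CPM at day 0. In day 0 replicate 2, 6 of its 7 guides were under 1 CPM. Its log2 value of 2.24 ± 1.54 (SE) was -0.59 without that library and 5.07 without day 0 replicate 1. FOXP4, the highest value at 2.28 ± 1.21 (SE), had 5 of 7 guides under 1 CPM there and was 0.51 without that library.

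The 2 genes past an unadjusted p of 0.05 were FOXD2, a factor of paraxial mesoderm in the mouse, and FOXC2. FOXD2 (chromosome 1, 47438044 to 47440691) had log2 levels of 10.81, 10.38 and 10.69 in 2D TNNT2- libraries, 11.12, 10.55 and 10.68 in 2D TNNT2+ libraries, and 9.89 and 7.38 at day 0. On this scale all 6 day 25 libraries were above both day 0 libraries, and the share of all genes so separated was not counted, here or for FOXL2. The summed reads overlapped, at 791, 705 and 794 CPM in TNNT2- libraries, 1114, 747 and 866 CPM in TNNT2+ libraries, and 750.0 and 335 CPM at day 0. The value was 2.13 ± 0.82 (SE, limma adjusted p = 0.411), and 0.87 without day 0 replicate 2. FOXC2 had levels of 10.27, 10.84 and 9.65 in TNNT2- libraries, 10.95, 10.68 and 10.84 in TNNT2+ libraries, and 10.23 and 8.69 at day 0, with a value of 1.28 ± 0.53 (SE, limma adjusted p = 0.411) and 0.51 without day 0 replicate 2. FOXL2, the ovary and eyelid factor, had a value of 1.65 ± 0.71 (SE, limma adjusted p = 0.411) that stayed between 1.47 and 1.74 with any 1 library left out. Its log2 levels were 10.73, 10.21 and 10.04 in TNNT2- libraries, 9.93, 10.13 and 10.06 in TNNT2+ libraries, and 8.51 and 8.70 at day 0. On this scale all 6 libraries were above both day 0 libraries. The summed reads overlapped, at 646, 495 and 434 CPM in TNNT2- libraries, 395, 474 and 445 CPM in TNNT2+ libraries, and 298 and 600 CPM at day 0. By summed reads, day 0 replicate 2 was above 5 of the 6 2D libraries.

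FOXL2 and FOXD2 each held a guide that was nearly missing from both day 0 libraries. FOXL2_5 had 0 and 1 reads at day 0, and 0 reads in replicate 1 allow up to 0.105 CPM. It was at 55.0, 23.3 and 18.6 CPM in 2D TNNT2- libraries and 25.3, 16.8 and 20.7 CPM in 2D TNNT2+ libraries. FOXD2_6 had 2 and 0 reads at day 0, and 0 reads in replicate 2 allow up to 0.118 CPM. It was at 46.8, 12 and 23.0 CPM in 2D TNNT2- libraries and 14.5, 37.8 and 33.1 CPM in 2D TNNT2+ libraries. These were the only forkhead guides under 1 CPM in both day 0 libraries, and both were above 10 CPM in all 6 2D libraries. Over the whole library, 100 guides were under 1 CPM in both day 0 libraries, and 19 of them were above 10 CPM in all 6 2D libraries. Limits from 0 reads cover counting error only.

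The third leading guide on the higher side in 2D was FOXC2_6, at 214, 147 and 163 CPM in TNNT2- libraries, 160, 171 and 104 CPM in TNNT2+ libraries, and 53.2 and 0.591 CPM at day 0. On the lower side stood FOXF1_7, FOXD4L1_4 and FOXE1_6. FOXF1_7 was at 52.9, 94.9 and 54.9 CPM in TNNT2- libraries, 36.2, 123 and 60.8 CPM in TNNT2+ libraries, and 193 and 254 CPM at day 0 (log2 value -2.17 ± 0.63, limma adjusted p = 0.515). FOXE1_6 was at 23.6 to 77.6 CPM in the 6 2D libraries and at 141 and 222 CPM at day 0, and FOXD4L1_4 was at 13.3 to 89.9 CPM and at 124 and 329 CPM. Each of these 3 guides was lower in all 6 2D libraries than in both day 0 libraries. That held for 21 forkhead guides (5.24% of all guides, 7.61% of forkhead guides), and 22 were higher in all 6 (7.54% and 7.97%).

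The genes with the lowest 2D values at day 25 were FOXE1, the thyroid factor, with -0.61, FOXF1 with -0.54 and FOXK1 with -0.38. Without day 0 replicate 2 these were 0.15, -0.17 and -0.27. For FOXF1, all 6 2D libraries lay between 393 and 783 CPM, and the day 0 libraries were at 718 and 1364 CPM, so the groups overlapped. For FOXM1 the value was -0.27, and 6 of its 7 guides were on the lower side. FOXC1 had a value of 1.65, and FOXP1 of 0.46, and without day 0 replicate 2 these were 0.41 and 0.04. The 8 tested FOXD genes were all on the higher side, with a median of 1.11, but 86.8% of all genes were on that side too.

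In 3D, no forkhead gene was called at day 25 against day 0 (0.0% of all genes). No forkhead guide was called (0.00882% of all guides, 1 guide). At an unadjusted p under 0.05, 2 forkhead genes were higher (11.0% of all genes) and none lower (0.0617%), and 8 guides were higher (4.46% of all guides) and none lower (0.185%). Gene values split into 33 higher and 7 lower, beside 82.2% higher over all genes, with a median of 0.63 beside 0.70. With the fractions averaged as log2 levels, the split was 22 higher and 18 lower, with a median of 0.04 beside 0.12 over all genes. With the fractions averaged as values, the split was 20 higher and 20 lower without 3D TNNT2+ replicate 3, and 26 higher and 14 lower without day 0 replicate 2.

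FOXR2 (chromosome X, 55623400 to 55626192), a proto-oncogene that is activated in some childhood brain tumours, ranked 2 of all 1621 genes by p in this comparison. Its 7 guides summed to 978, 2075 and 812 CPM in 3D TNNT2- libraries, 558, 965 and 942 CPM in 3D TNNT2+ libraries, and 442 and 388 CPM at day 0. All 6 day 25 libraries were above both day 0 libraries, and the share of all genes for which this held was not counted. The log2 value was 2.74 ± 0.71 (SE, limma adjusted p = 0.394), 6 of 7 guides were higher, and it stayed between 1.78 and 3.70 with any 1 library left out. With the fractions averaged as log2 levels it was 2.23. With a pseudocount of 1 the adjusted p was 0.0202, with DESeq2 on recovered reads 0.00461 and with edgeR on recovered reads 0.686, so the call depends on the method. In 2D, FOXR2 summed to 497, 630 and 649 CPM in TNNT2- libraries and 396, 518 and 656 CPM in TNNT2+ libraries, with a log2 value of 1.5 ± 0.86 (SE, limma adjusted p = 0.411).

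1 guide held much of the FOXR2 reads in 3D. FOXR2_5 was at 491.4, 1453 and 173.7 CPM in 3D TNNT2- libraries, 97.1, 218.1 and 210.6 CPM in 3D TNNT2+ libraries, and 27.1 and 0.394 CPM at day 0. It had the highest CPM of all forkhead guides in 3D TNNT2- replicates 1 and 2. Its log2 value was 6.48 ± 1.51 (SE, limma adjusted p = 0.104), the smallest p of any forkhead guide in any comparison. In the 6 2D libraries it lay between 5.67 and 44.8 CPM, so its lowest 3D library was above its highest 2D library. It was the 1 forkhead guide higher in every 3D than in every 2D library, as 0.167% of all guides were, and 4 forkhead guides were lower in every 3D than in every 2D library, as 0.466% of all guides were.

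The other FOXR2 guides did not share that separation from 2D. FOXR2_1, for example, was at 36.4, 138 and 349 CPM in 3D TNNT2- libraries, 80.0, 113 and 117 CPM in 3D TNNT2+ libraries, and 103 and 149 CPM at day 0. 4 of the 7 guides, FOXR2_5 among them, were under 1 CPM in day 0 replicate 2, and FOXR2_5 was called without day 0 replicate 1 or without 3D TNNT2+ replicate 1, and not without any other library. FOXR2_5 was also called with CPM, TMM and control guide scaling and with DESeq2, and its log2 value was 5.22 without the 3 3D libraries that had lost many guides.

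FOXI3 had the highest 3D gene value, 3.14 ± 0.99 (SE, limma adjusted p = 0.426). Its log2 level was 10.12, 9.76 and 9.32 in TNNT2- libraries, 9.56, 10.21 and 12.12 in TNNT2+ libraries, and 10.26 and 5.21 at day 0. Only TNNT2+ replicate 3, which had lost many guides, was above day 0 replicate 1, and all day 25 libraries were far above day 0 replicate 2. The value was 0.61 without day 0 replicate 2 and 2.11 without 3D TNNT2+ replicate 3. It was 2.36 without the 3 3D libraries that had lost many guides, and 2.45 with the fractions averaged as log2 levels. FOXP4 followed FOXR2 with 1.91, which was 0.44 without day 0 replicate 2 and 1.24 with the fractions averaged as log2 levels. FOXC1 had a value of 0.60, FOXC2 of 0.86, FOXP1 of 0.23 and FOXF1 of -0.47, and each of their 95% intervals included 0. With the fractions averaged as log2 levels these were -0.02, 0.07, -0.44 and -1.15. The sign of FOXC1 turned in 7 of 23 alternatives, that of FOXP1 in 6, that of FOXC2 in 2 and that of FOXF1 in 1.

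FOXK1 had the lowest 3D value. It summed to 457, 331 and 133 CPM in 3D TNNT2- libraries, 636, 502 and 65.6 CPM in 3D TNNT2+ libraries, and 577 and 901 CPM at day 0. On the log2 scale its levels were 8.35, 8.90 and 6.14 in TNNT2- libraries, 8.56, 8.94 and 6.14 in TNNT2+ libraries, and 9.74 and 10.42 at day 0. On this scale all 6 day 25 libraries were below both day 0 libraries, which also held for FOXM1, and the share of all genes was not counted. The summed reads overlapped, as TNNT2+ replicate 1 was above day 0 replicate 1. The value was -1.76 ± 0.93 (SE, limma adjusted p = 0.435), with 6 of 7 guides lower. It stayed between -2.10 and -1.43 with any 1 library left out and was -1.35 without the 3 libraries that had lost many guides and -2.24 with the fractions averaged as log2 levels. In 2D its value was -0.38, also with 6 of 7 guides lower.

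Among single FOXK1 guides, FOXK1_6 was lower in all 6 3D libraries than at day 0, with 24.1, 50.6 and 0.379 CPM in TNNT2- libraries, 75.9, 74.2 and 0.245 CPM in TNNT2+ libraries, and 113 and 114 CPM at day 0. FOXK1_7 was nearly missing from the 3D libraries other than TNNT2- replicate 2. It was at 0.0382, 47.7 and 0.0631 CPM in TNNT2- libraries and 0.0727, 0.0396 and 0 CPM in TNNT2+ libraries, against 38.9 and 9.30 CPM at day 0. The 0 reads in TNNT2+ replicate 3 allow up to 0.122 CPM. In 2D it was at 0 to 62.6 CPM. In both systems its highest library was thus above both day 0 libraries. FOXK2, its close relative, had a 3D value of 0.28, which was -0.30 with the fractions averaged as log2 levels and -0.34 without the 3 libraries that had lost many guides.

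FOXB1, a factor of the developing brain, and FOXM1 had the next lowest 3D values, -0.63 and -0.56. These were -1.09 and -1.71 with the fractions averaged as log2 levels, and -1.16 and -0.33 without day 0 replicate 2. Without 3D TNNT2- replicate 3 they were -1.16 and -1.34, and without the 3 3D libraries that had lost many guides -0.58 and -0.82. FOXM1 had log2 levels of 9.50, 6.63 and 8.28 in 3D TNNT2- libraries and 8.36, 9.02 and 7.68 in 3D TNNT2+ libraries. At day 0 it was at 9.72 and 10.18, above all 6 3D libraries, and 6 of its 7 guides were lower at day 25. FOXB1_5 was at 6.07, 0.295 and 0.0947 CPM in 3D TNNT2- libraries, 45.8, 0.119 and 0 CPM in 3D TNNT2+ libraries, and 85.6 and 162 CPM at day 0. It had the same direction in 2D, at 10.7 to 66.3 CPM, and thus lay below both day 0 libraries in all 12 day 25 libraries. FOXK1_1 and FOXF1_1 were the other leading guides on the lower side, with log2 values of -2.86 and -3.22. FOXD4L4_3, FOXE1_6, FOXI1_5, FOXJ3_6 and FOXR1_1 were, like FOXB1_5, below both day 0 libraries in all 12. The share of all guides with that order was not counted, and both systems share the day 0 libraries. FOXI2_7 and FOXB2_7 followed FOXR2_5 on the higher side with 5.41 and 4.70. FOXI2_7 was at 180, 292 and 136 CPM in 3D TNNT2- libraries, 147, 59.2 and 315 CPM in 3D TNNT2+ libraries, and 39.0 and 0.315 CPM at day 0. Forkhead guides above both day 0 libraries in all 6 3D libraries numbered 9 (1.94% of all guides, 3.26% of forkhead guides), and 12 were below them in all 6 (3.52% and 4.35%).

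FOXD4, FOXD4L3, FOXD4L4, FOXD4L5 and FOXD4L6 lie on chromosome 9 and FOXD4L1 on chromosome 2, and they are near-identical copies of one another. A guide designed for one of them may cut others, so the values of these 34 guides are uncertain as to their target. The single FOXD4L3 guide was at 106, 145 and 121 CPM in 3D TNNT2- libraries, against 64.9, 54.8 and 78.8 CPM in 3D TNNT2+ libraries, without overlap. In 2D it was at 61.2, 89.2 and 195 CPM in TNNT2- libraries and 114, 45.7 and 198 CPM in TNNT2+ libraries, with overlap. FOXD4_1 was higher without overlap in both sorts, at 278, 325 and 428 CPM in 3D TNNT2- and 268, 148 and 217 CPM in 3D TNNT2+ libraries, and at 263, 310 and 278 CPM in 2D TNNT2- and 155, 252 and 253 CPM in 2D TNNT2+ libraries. Its log2 ratios were 0.43 in 3D and 0.37 in 2D, and neither was called.

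Lists of other guides give the scale of these values. In the 2D sort, 21 of the 40 gene values were on the higher side with a median of 0.02. Of the forkhead genes left out here (the FOXO, FOXA and FOXH names), 8 of 8 were, with a median of 0.35, and 56.9% of all genes were. In the 3D sort, the genes left out split into 2 higher and 6 lower, with a median of -0.49. There the 40 genes split into 14 higher and 26 lower, and 45.8% of all genes were higher. No test of these contrasts between lists was made. Of 14 tested partners of forkhead factors, among them GLI and SMAD genes, 7 were higher and 7 lower in the 2D sort and 9 higher and 5 lower in the 3D sort, with 0 called in both. The SD of log2 ratios was 2.03 over forkhead guides and 1.76 over the 100 control guides in the 3D sort, and 0.72 and 0.60 in the 2D sort.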

How the data were processed

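Amplified guide cassettes were counted in 14 libraries of genomic DNA. The authors deposited a table each for 2D and 3D, and both values are a normalized signal per guide. In the deposited columns every value is a whole multiple (within 0.001, for 100% of values) of a constant of that library, so whole read counts were recovered by dividing by it. Guide analysis used MAGeCK and the build hg38, per the submitters' processing notes. The MAGeCK version and settings: not given in the sources used here. PCR reads carry no molecular identifiers, so depth (22355936 to 31671019 reads) does not give the number of cells sampled.

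The guides were selected by target name. limma 3.58.1 (R 4.3.3) with a mean-variance trend was fitted on log2(value + 10) to all guides with a mean value of at least 10, and to all genes with at least 3 such guides. p-values are 2-sided and were adjusted over the whole table by Benjamini-Hochberg, with calls at 0.05. For the interaction, the recovered reads of all libraries were put on 1 scale by median ratios. A gene's SE is over libraries, not over guides.

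Fractions with the same replicate number were read as 1 differentiation, after the labels' protocols, and for day 25 against day 0 their values were averaged before the log. Their deviations from the group means correlated at 0.0560 to 0.109 in 3D and 0.0767 to 0.126 in 2D. Differently numbered fractions correlated lower, at -0.0782 to 0.0269 in 3D and -0.0625 to -0.0399 in 2D. The reported fits nevertheless have no block. Alternatives were edgeR 4.0.16, DESeq2 1.42.0, rank aggregation over guides, pseudocounts of 1 and 100, no low value filter, other scalings, the median over guides, a replicate block, single fractions at day 25 and each library left out. Averaging the fractions as log2 levels was added after seeing the data. The scripts were tested on simulated data.

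Values in full are given for FOXC1, FOXC2, FOXF1, FOXK1, FOXP1, FOXM1 and FOXI3, for the 3 highest and 3 lowest genes and for the 3 leading guides per direction in each comparison, except that some named by this rule are not reported here. Counts of guides whose groups do not overlap, of genes with all guides on 1 side, and of guides missing at day 0, and the genes or guides named from them, were chosen after the values were seen, as were FOXL1, FOXL2, FOXD4L1 and FOXD4L3 where their values are given. The members, lists and tests were chosen with earlier results of these data known. Guide sequences were not used here.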

Additional observations from a re-analysis of the deposited data

How the results depend on the processing

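In both sorts and in the difference between systems, 0 forkhead genes and 0 forkhead guides were called under every alternative run, the replicate block included. With the replicate block, 0 forkhead genes and guides were also called at day 25 in both systems. At day 25 some alternatives made calls where the fits reported made 0. In 2D, DESeq2 called 6 guides (FOXD4L1_4, FOXD4L5_4, FOXE1_6, FOXF1_7, FOXI1_6 and FOXP1_5) and 1 gene (FOXC2). Leaving out 1 library gave 0 to 202 guides and 0 to 37 genes. The 202 and 37 arose without day 0 replicate 1, when the lone remaining day 0 library, which had lost many guides, is assumed to vary like the day 25 libraries. Without day 0 replicate 2, 4 guides (FOXD2_6, FOXL2_5, FOXL2_6 and FOXS1_1) and 1 gene (FOXL2) were called. In 3D, CPM, TMM and control guide scaling and DESeq2 each called 1 guide, FOXR2_5. A pseudocount of 1 called 2 genes (FOXI3 and FOXR2), and DESeq2 called 1 gene (FOXR2). Leaving out 1 library gave 0 to 27 guides and 0 to 6 genes, the highest counts again without day 0 replicate 1. The cause of these differences was not tested. Of 52 gene values followed over the alternatives, 23 kept their sign in all and 29 changed it in some. In the 3D sort 3 of 10 kept it, and at day 25 in 3D 6 of 10 did. Averaging the fractions as log2 levels called 0 forkhead genes and guides at day 25 in both systems, and moved the median gene value in 3D to 0.04, against 0.63 as reported (0.12 and 0.70 over all genes). Median gene ratios of the whole library at day 25 in 2D were 0.82 as reported and 1.15, 0.96 and 0.98 with CPM, TMM and control guide scaling.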

Other observations

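Role groups not described above also showed no call. The FOXJ genes, of which FOXJ1 drives motile cilia, had 3 of 3 values on the lower side in the 3D sort, with a median log2 ratio of -0.38, and 1 of 3 in the 2D sort. Without the 3 3D libraries that had lost many guides, which leaves 1 TNNT2- against 2 TNNT2+ libraries, FOXJ2 and FOXJ3 were at 0.51 and 0.09, on the higher side. FOXK2 had a 3D sort ratio of -1.06, which was 0.04 without them. The FOXN and FOXR genes had 6 of 6 values on the higher side at day 25 in 2D, where 86.8% of all genes were. In 3D, FOXN3 and FOXR1 had values of 0.32 and 0.72, which were -0.45 and -0.01 with the fractions averaged as log2 levels.

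FOXS1_1, a guide against a factor of neural crest and pericytes, was above both day 0 libraries in all 12 day 25 libraries. It was at 43.6, 62.5 and 224 CPM in 3D TNNT2- libraries, 118, 116 and 28.5 CPM in 3D TNNT2+ libraries, and 27.5 and 2.52 CPM at day 0. In 2D it was at 155, 107 and 174 CPM in TNNT2- libraries and 73.6, 133 and 130 CPM in TNNT2+ libraries. FOXP3_3 had the same order, at 161 to 576 CPM in 3D and 148 to 275 CPM in 2D, against 139 and 75.2 CPM at day 0. For both guides the margin over day 0 replicate 1 was small in the lowest of these libraries. FOXD4L1_2, FOXL1_2 and FOXL2_5 were also above both day 0 libraries in all 12. The share of all guides with this order was not counted, and both systems were set against the same day 0 libraries.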
